A study of Mus musculus with 10 samples.

Results

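The genes described here were 7 long noncoding RNAs that are abundant in brain and are kept mostly in the nucleus. They were *Malat1*, *Neat1*, *Meg3*, *Miat*, *Rian*, *Mirg* and *Snhg11*, chosen by name. All 7 had a row among the 24453 genes of the count table. The RNA-seq libraries came from intratelencephalic projection neurons (IT-PNs) of layer 5 in the right primary motor cortex (M1) of 5 male mice, aged 28 to 32 days. Each animal gave a library of *Fezf2+ve* and another of *Fezf2−ve* cells, 10 libraries in all, and the comparison asked how the transcriptomes of these neighbouring IT-PN types differ. All animals were hemizygous *Fezf2-Gfp* reporter mice, strain (Zfp312-EGFP)CO61GsatMmnc, on a Swiss Webster background. At 23 to 25 days all had received cholera toxin subunit b with a far-red dye, a tracer that travels back along axons, in the M1 of the left hemisphere. *Fezf2+ve* cells were sorted by FACS as GFP and tracer positive and *Fezf2−ve* cells as tracer positive only, so the types were defined by a reporter under *Fezf2* regulatory elements and not by *Fezf2* RNA. By RT-PCR the paper detected *Fezf2* RNA in the sorted *Fezf2+ve* and not in the sorted *Fezf2−ve* samples. The sample records give a mean of 11280 sorted *Fezf2+ve* and 2688 sorted *Fezf2−ve* cells per animal. The mean for *Fezf2−ve* cells is higher in the paper.

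Long noncoding RNAs of this kind act at the site of transcription or organise nuclear bodies. *Malat1* gathers in nuclear speckles, where splicing factors are stored, *Neat1* is the scaffold of paraspeckles, and *Miat* lies in separate foci and binds splicing factors. *Meg3*, *Rian* and *Mirg* are transcribed from the maternal chromosome of the imprinted Dlk1-Dio3 region and carry small RNAs in their introns and exons, and *Snhg11* is a host gene of small nucleolar RNAs that is enriched in neurons.

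First-strand cDNA was primed with an oligo(dT) of 22 T, so that any stretch of a transcript rich in A is of interest beside the tail. For each member the 22-base window with the most A was found in its longest GENCODE transcript (GRCm38, which is mm10), and the sequences are shown as stretches of the spliced transcripts with which the primer could pair away from the tail. Capitals mark runs of at least 4 A.

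Malat1: AAAAAAAAAAAAgcAAAAgacg

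Neat1: agaacAAAAAAcaaagAAAAAA

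Meg3: AAAAAAAAAAAAAAAAcAAAAA

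Snhg11: AAAAcAAAAAcAAAAccAAAAA

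Rian: aaattagAAAAAAAtatAAAAA

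Miat: aaattaaagcAAAAttcaaata

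Mirg: agaaccaaggaagacagagaaa

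The *Meg3* window held 21 A of 22 bases, those of *Neat1* and *Snhg11* 18, those of *Malat1* and *Rian* 17, that of *Miat* 14 and that of *Mirg* 13. The longest unbroken runs of A in *Rian* (15), *Snhg11* (8), *Neat1* (7) and *Mirg* (5) lay outside these windows. A window at least as rich in A was present in 8.68% of the transcripts of similar length for *Meg3*, 22.3% for *Snhg11*, 37.5% for *Neat1*, 39.9% for *Malat1*, 43.5% for *Rian*, 90.2% for *Mirg* and 91.9% for *Miat*. The *Malat1* window lay at chr19:5795978-5795999 on the minus strand, 288 bases before the end of the single exon. That of *Neat1* lay at chr19:5834098-5834119 on the minus strand, also in a single exon. The *Meg3* window lay in exon 1 of 5 (chr12:109545817-109545838, plus strand) and that of *Snhg11* in exon 5 of 5 (chr2:158385163-158385184, plus strand). The window of *Rian* lay in exon 2 of 2 (chr12:109653988-109654009, plus strand), that of *Miat* in exon 7 of 7 (chr5:112218190-112218211, minus strand) and that of *Mirg* in exon 3 of 12 (chr12:109733557-109733578, plus strand), ahead of the start of *Mirg* in RefSeq. Whether any of these windows was a priming site was not tested.

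The members lie in 4 places of the genome. *Malat1* and *Neat1* are neighbours on the minus strand of chromosome 19, with 22.0 kb between them. *Meg3*, *Rian* and *Mirg* follow each other on the plus strand of chromosome 12, with 32.2 kb and 68.0 kb between them, all distances being taken from GENCODE. *Miat* lies alone on chromosome 5 and *Snhg11* on chromosome 2. The RefSeq span, over which levels per kb are given, was 6.98 kb for *Malat1*, 10.8 kb for *Snhg11*, 14.5 kb for *Mirg*, 15.7 kb for *Miat*, 20.8 kb for *Neat1*, 30.7 kb for *Meg3* and 57.8 kb for *Rian*. *Snhg11* is a long noncoding RNA in RefSeq and is listed as protein coding in GENCODE.

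The libraries were shallow, with 89138 to 217738 reads on genes, so that 3 reads, taken as the floor, came to 13.8 to 33.7 CPM. The members together had 1548 reads, 32 to 466 per library, which was 0.0151% to 0.293% of the gene reads. They took 5.14% of the reads on the 2022 long noncoding RNA rows, of which 798 had at least 1 read. *Neat1* alone held 74.0% of the members' reads. The counting intervals and floors given here cover counting error only. They leave out the spread between animals, and several reads can come from 1 molecule after PCR. The intervals are therefore too narrow for a comparison of the types.

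*Malat1*, *Neat1*, *Meg3* and *Snhg11* were read in both types and passed the filter of at least 10 CPM in at least 2 libraries. *Miat*, *Rian* and *Mirg* had 1 or 2 reads each over all 10 libraries. Per kb of RefSeq span, the mean level over the 10 libraries was 32.4 ± 44.9 CPM per kb (SD) for *Neat1* and 28.6 ± 24.9 for *Malat1*, followed by 5.23 ± 9.34 for *Snhg11* and 0.906 ± 1.05 for *Meg3*. *Mirg* (0.117 ± 0.370), *Miat* (0.0591 ± 0.187) and *Rian* (0.0188 ± 0.0398) came last on the same scale. *Neat1* and *Malat1* did not differ beyond their spread, each being the higher in 5 of the 10 libraries. *Malat1* was above *Snhg11* in 9 of the 10 libraries, whereas *Snhg11* was above *Meg3* in 6 and below it in 3. *Meg3* was above *Mirg* in 8 libraries, and the order of *Mirg*, *Miat* and *Rian* rested on single reads.

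Among the long noncoding RNAs of the table, ordered by pooled CPM per kb, *Neat1* was 7th and *Malat1* 8th, *Snhg11* 28th and *Meg3* 98th of the 798 with reads. *Mirg* was 437th, *Miat* 624th and *Rian* 728th. The study describes reads from the 3′ part of transcripts, for which length need not enter, and by reads alone the ranks were 7 for *Neat1*, 21 for *Malat1*, 45 for *Snhg11* and 78 for *Meg3*. *Bc1*, a short dendritic RNA of neurons, was highest by pooled CPM per kb (1438 CPM per kb). *Tug1*, a long noncoding RNA found in nucleus and cytoplasm, had the most reads (4774, or 340 CPM per kb). *Neat1* stood at 35.5 and *Malat1* at 25.7 pooled CPM per kb. The ranks rest on pooled reads, which single libraries held to different degrees. Among genes ranked above them per kb, the library with the most reads held 99.5% for *Zeb2os* and 90.3% for *4931406H21Rik*. It held 49.4% for *Tug1* and 35.5% for *Bc1*, beside 40.2% for *Neat1* and 35.1% for *Malat1*.

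*Malat1*, the RNA of nuclear speckles, was read 29, 33, 27, 3 and 21 times in *Fezf2+ve* IT-PNs of animals 1 to 5. *Fezf2−ve* IT-PNs of the same animals gave 98, 22, 38, 4 and 4 reads. The *Fezf2−ve* library of animal 1 was the highest, both libraries of animal 4 and the *Fezf2−ve* library of animal 5 were low, and the types overlapped. The mean was 181 ± 116 CPM (SD, n = 5) in *Fezf2+ve* and 219 ± 231 CPM in *Fezf2−ve* IT-PNs. *Malat1* stood higher in *Fezf2+ve* than in *Fezf2−ve* IT-PNs of the same animal in 4 of 5 animals, but barely so in animals 3 (229 against 225 CPM) and 4 (19.8 against 18.9 CPM). The ratio of pooled CPM was 0.833, with an exact 95% counting interval of 0.650 to 1.06. The log2 fold change of *Fezf2+ve* over *Fezf2−ve* was 0.30 ± 1.02 (SE) in the edgeR quasi-likelihood fit with the animal as a block, with an adjusted p of 0.998. The smallest adjusted p of any gene in this edgeR fit was 0.993, so an adjusted p of 0.998 says little about a single gene. Its direction was not stable, since it was −0.20 without the block, −0.064 with counts downsampled to the smallest library, and −0.28 without animal 5.

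*Neat1*, the scaffold of paraspeckles, was read 9, 244, 4, 38 and 332 times in *Fezf2+ve* IT-PNs, in the order of the animals. In *Fezf2−ve* IT-PNs it was read 12, 10, 8, 28 and 460 times. The *Fezf2+ve* library of animal 2 and both libraries of animal 5 stood far above the rest and held 90.5% of all *Neat1* reads. *Neat1* was at 852 ± 1030 CPM (SD, n = 5) in *Fezf2+ve* and 495 ± 905 CPM in *Fezf2−ve* IT-PNs, with medians of 251 and 112 CPM, and was the higher in *Fezf2+ve* in 3 of 5 animals. The log2 fold change was 0.80 ± 1.17 (SE; edgeR, adjusted p = 0.998), and it was 0.10 without animal 2. The count row does not tell transcript forms of *Neat1* apart, and a form without a poly(A) tail could be missed by oligo(dT) priming. Its level is therefore not a measure of paraspeckles. The priming limit holds for *Malat1* as well.

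*Meg3*, the imprinted RNA that binds Polycomb proteins, gave 12, 7, 2, 2 and 6 reads in *Fezf2+ve* IT-PNs of animals 1 to 5. The reads in *Fezf2−ve* IT-PNs were 5, 0, 3, 0 and 1. It was thus read in every *Fezf2+ve* library and in 3 of 5 *Fezf2−ve* libraries, 4 libraries were above 3 reads, and the types overlapped. The mean was 45.2 ± 37.6 CPM (SD, n = 5) in *Fezf2+ve* and 10.4 ± 13.0 CPM in *Fezf2−ve* IT-PNs, and *Meg3* was the higher in *Fezf2+ve* in 4 of 5 animals. Over the pooled reads, 29 against 9, the ratio of CPM was 3.94, with an exact 95% counting interval of 1.82 to 9.47. That interval leaves out the spread between animals, which the fit takes in. The log2 fold change was 2.33 ± 1.28 (SE; edgeR, unadjusted p = 0.083, adjusted p = 0.998). It passed the filter with 5 *Fezf2+ve* and 2 *Fezf2−ve* libraries at or above 10 CPM.

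*Snhg11*, the neuronal snoRNA host gene, gave 5, 30, 1, 0 and 42 reads in *Fezf2+ve* IT-PNs of animals 1 to 5. *Fezf2−ve* IT-PNs had 0, 2, 0, 0 and 1. The libraries of animals 2 and 5 were high among the *Fezf2+ve* libraries, animal 4 had no read in either type, and no *Fezf2−ve* library was above the floor of 3 reads. The mean was 107 ± 127 CPM (SD, n = 5) in *Fezf2+ve* and 5.41 ± 9.73 CPM in *Fezf2−ve* IT-PNs, and *Snhg11* was the higher in *Fezf2+ve* in 4 of 5 animals with 1 tied at 0. The ratio of pooled CPM, from 78 against 3 reads, was 31.8, with an exact 95% counting interval of 10.5 to 158. It depends on single libraries, which held 42 of the 78 and 2 of the 3 reads. The log2 fold change was 4.29 ± 1.46 (SE; edgeR, unadjusted p = 0.0095, adjusted p = 0.998), which was the 46th smallest p of 7409. *Snhg11* passed the filter through 3 *Fezf2+ve* libraries and 1 *Fezf2−ve* library at or above 10 CPM, so a difference was partly set by the filter. In these sorted samples fewer cells with a transcript and less of it per cell cannot be told apart.

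**Figure D1:**
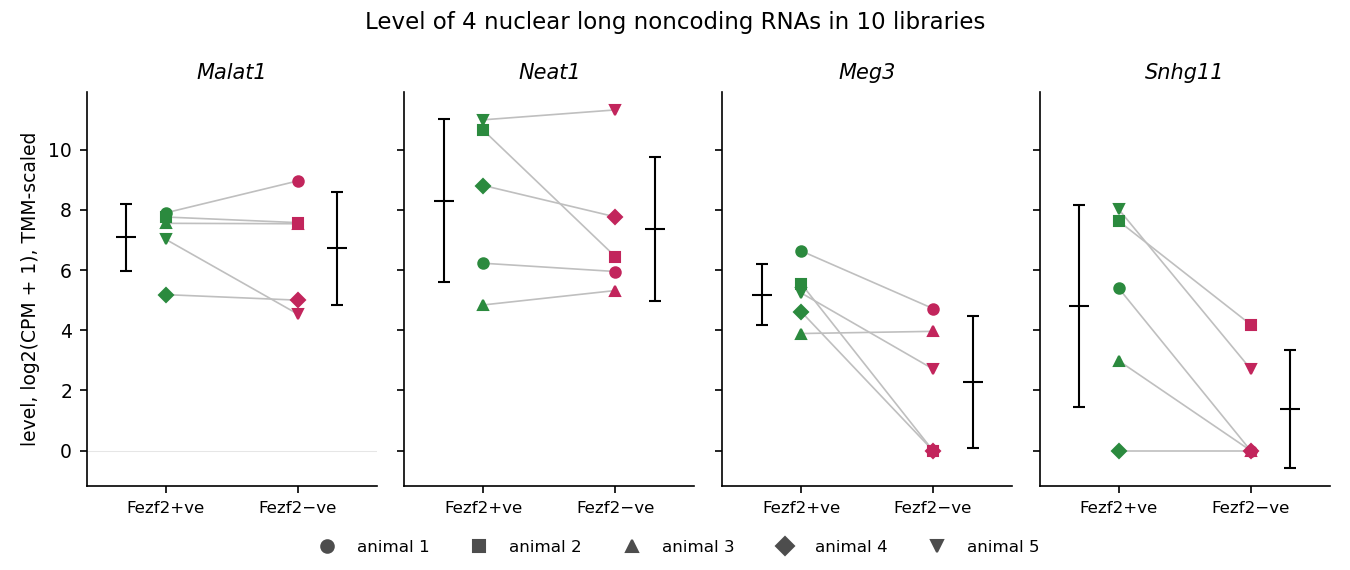
Level of the 4 tested members as log2(CPM + 1) after TMM scaling, in the *Fezf2+ve* (green) and *Fezf2−ve* (red) libraries, with grey lines joining the libraries of an animal and black bars for the mean ± SD of 5 libraries. *Snhg11* averaged 4.80 ± 3.35 in *Fezf2+ve* and 1.38 ± 1.96 in *Fezf2−ve*, *Meg3* 5.19 ± 1.03 and 2.28 ± 2.20, *Neat1* 8.30 ± 2.70 and 7.36 ± 2.39, and *Malat1* 7.08 ± 1.11 and 6.72 ± 1.88, and the libraries of the types overlap in every panel.

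*Miat*, *Rian* and *Mirg* were at or under the floor in every library of both types, so no fold change is given for them. *Miat* had 1 read, in the *Fezf2+ve* library of animal 2. *Rian*, which carries C/D box snoRNAs, had 1 read in the *Fezf2+ve* library of animal 5 and 1 in the *Fezf2−ve* library of animal 3. *Mirg*, the host of a large miRNA cluster, had 2 reads, both in the *Fezf2+ve* library of animal 1. These RNAs were not detectable above the floor at this depth, which does not show that they were absent.

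None of the 4 tested members was called at an adjusted p of 0.1 or less by edgeR with the animal block. That fit called 0 of 7409 genes (0%), and its smallest adjusted p was 0.993, so it could not single out any gene. At an unadjusted p under 0.05, 1 of the 4 (*Snhg11*) and 288 of the 7409 genes (3.89%) passed. DESeq2 with the block called 98 of the 1664 genes to which it gave an adjusted p (5.89%) and none of the members. It gave adjusted p-values of 0.939 for *Malat1* and 0.786 for *Neat1*, and none for *Meg3* and *Snhg11*, where its log2 fold changes were 2.55 and 3.76. Without the block edgeR called 279 of 7409 genes (3.77%), again none of the members, with an adjusted p of 0.172 for *Snhg11*. limma-voom with the block called 13 genes and no member. The 4 log2 fold changes in the edgeR fit with the block were all above 0, that of *Malat1* not stably so. Over all tested genes the median was −0.16, with 3388 above 0 and 4021 below. *Snhg11* passed the filter only with its *Fezf2+ve* libraries, so its direction was partly set by the filter. No shift of the 4 as a set is read from these values.

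**Figure D2:**
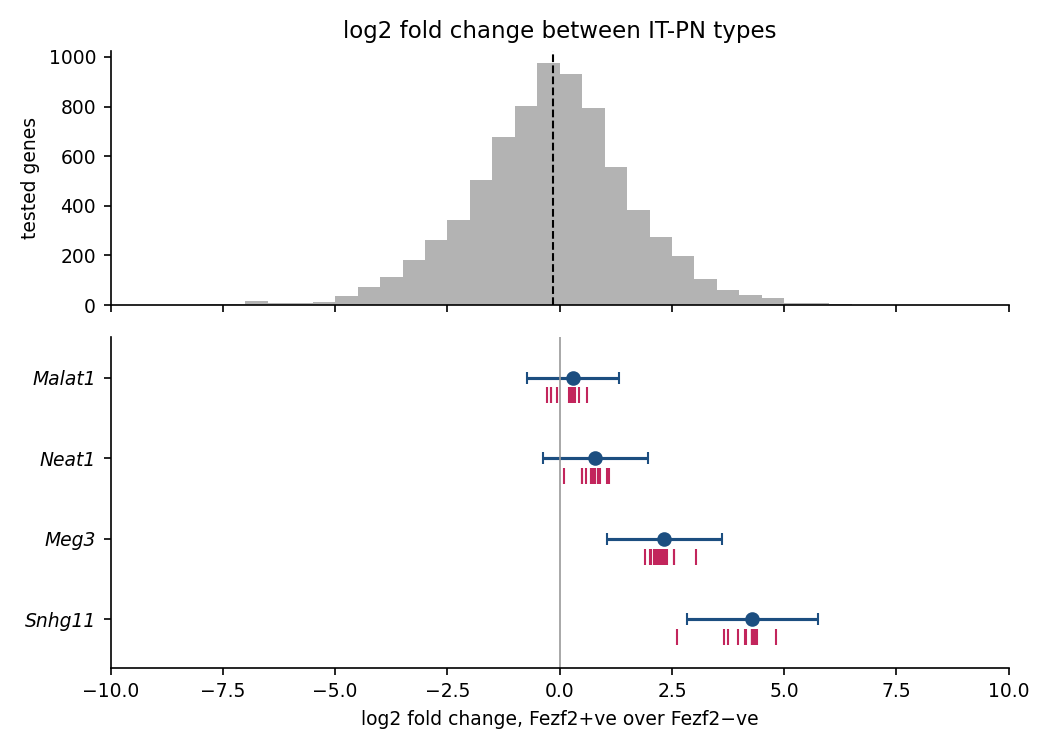
Upper panel, number of the 7409 tested genes by log2 fold change of *Fezf2+ve* over *Fezf2−ve*, with the median of −0.16 as a dashed line. Lower panel, the 4 tested members as points with SE bars from edgeR with the animal block and, as red ticks under them, the values under the other settings, which ran from −0.28 to 0.61 for *Malat1*, 0.10 to 1.1 for *Neat1*, 1.90 to 3.03 for *Meg3* and 2.61 to 4.81 for *Snhg11*.

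The neighbours *Neat1* and *Malat1* did not vary together. For *Fezf2+ve* IT-PNs of animals 1 to 5, the ratio of *Neat1* to *Malat1* reads was 0.310, 7.39, 0.148, 12.7 and 15.8. For *Fezf2−ve* IT-PNs it was 0.122, 0.455, 0.211, 7 and 115. The ratio was under 1 in both libraries of animals 1 and 3 and at least 7 in both libraries of animals 4 and 5, and only in animal 2 did the types lie on opposite sides of 1. The paired difference of the log2 ratio, *Fezf2+ve* minus *Fezf2−ve*, was 0.57 ± 2.53 (SD, n = 5 animals), smaller than its spread. The TMM factors followed the animals as well, at 0.568 and 0.631 in animal 4 and 0.817 and 0.849 in animal 5 against 1.06 to 1.48 in the other animals. The ratios of animal 4 and of *Fezf2−ve* IT-PNs of animal 5 rest on 3 or 4 *Malat1* reads, at or next to the floor. The ratio itself does not depend on the scaling.

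**Figure D3:**
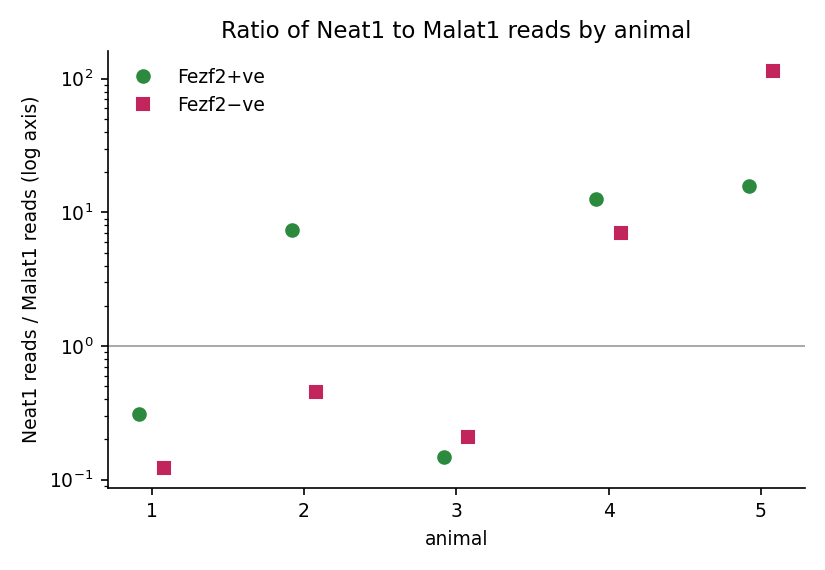
Ratio of *Neat1* to *Malat1* reads on a log axis for each animal, with *Fezf2+ve* as green circles, *Fezf2−ve* as red squares and a line at 1. The ratio spans 0.122 to 115, and both libraries are below the line in animals 1 and 3 and above it in animals 4 and 5.

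Across the 10 libraries, which come from 5 animals and share their depth within a library, *Malat1* and *Neat1* had a Pearson r of −0.52 and a Spearman rho of −0.52 on TMM-scaled log2(CPM + 1). *Malat1* and *Meg3* had an r of 0.42 and a rho of 0.55, and *Neat1* and *Snhg11* an r of 0.47 and a rho of 0.34. The other pairs had an r of 0.10 to 0.37. The genes most like *Malat1* among 1775 tested genes with a mean of at least 50 CPM were the tubulin gene *Tuba1b* (r = 0.94) and *Gm1821* (r = 0.92). Both have near-identical copies in the genome, so their counts are uncertain. Those most like *Neat1* were *Nav1*, which codes for a microtubule-associated protein of growing neurites (r = 0.86), and *Nfkb1*, a subunit of NF-kappa B (r = 0.85). Those most like *Meg3* were the ribosomal protein gene *Rps2* (r = 0.91), which has processed copies, and *Fbxl16*, an F-box protein gene (r = 0.86). *Snhg11* was followed most closely by *Pdlim5*, a PDZ and LIM domain protein gene (r = 0.92), and the kinase gene *Nek7* (r = 0.86). These r values are descriptions of 10 points, the highest of many, and carry no test.

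The RNAs carried by *Meg3*, *Rian* and *Mirg* were almost unread, and the count table had no such feature within *Snhg11*. The count table had 27 features that overlap the GENCODE spans of *Meg3*, *Rian* and *Mirg*, of which 19 were miRNAs and 7 snoRNAs, the last being *Rtl1*, which reaches from *Meg3* into *Rian*. Together they held 1 read, on *Mir770* inside *Meg3*. Priming was by oligo(dT) and short reads were discarded. Mature miRNAs and RNAs without a poly(A) tail could therefore hardly be read at any level, so the counts do not show that they were absent. All 19 miRNAs matched the RefSeq table (GRCm38.p6), with 35 mature sequences and 34 distinct seeds. The products of *Mir770*, and the only pair of mature miRNAs within the members that shared a seed, both from *Mirg*, are given with the seed (bases 2 to 8) in capitals.

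miR-770-5p: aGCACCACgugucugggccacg

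miR-770-3p: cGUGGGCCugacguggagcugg

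miR-453: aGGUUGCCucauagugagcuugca

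miR-496a-5p: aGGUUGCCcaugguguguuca

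A list of 8 genes of the imprinted region and its flanks was read unevenly. The imprinted genes *Dlk1*, *Rtl1*, *Dio3* and *Dio3os* had no reads. *Dync1h1*, which lies beyond *Dio3* and codes for the heavy chain of cytoplasmic dynein, held 98.2% of the reads of this list, and 4332 of its 4446 reads were in the *Fezf2−ve* library of animal 1. Of the 3 genes tested, all in the flanks, 0 passed an unadjusted p under 0.05 in edgeR. Their median log2 fold change was −1.17. Without the block edgeR called *Dync1h1* as lower in *Fezf2+ve* (adjusted p = 0.093).

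Protein partners of the members were compared next. Of 18 genes for paraspeckle proteins, which bind *Neat1*, all had reads and 14 were tested, 5 with a log2 fold change above 0 and 9 below, with a median of −0.48. *Pspc1*, a core paraspeckle protein, had the most reads (122) and a log2 fold change of −2.89 ± 1.73 (SE; edgeR, adjusted p = 0.998). Of its 122 reads, 79 were in the *Fezf2−ve* library of animal 1. The summed paraspeckle list was at 51 to 604 CPM in *Fezf2+ve* and 137 to 893 CPM in *Fezf2−ve* libraries. The 3 libraries highest in *Neat1* were at 604, 256 and 142 CPM, beside 893 CPM in the *Fezf2−ve* library of animal 1 with its 12 *Neat1* reads.

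Of 25 genes for nuclear speckle proteins, the bodies that hold *Malat1*, 20 were tested, 12 above 0 and 8 below, with a median of 0.19. *Tra2b*, a splicing regulator, held 57.9% of the list's reads, with 1042 and 2028 reads in *Fezf2−ve* IT-PNs of animals 3 and 5 and at most 65 in any other library. Its log2 fold change was −2.10 ± 1.43 (SE; edgeR, adjusted p = 0.998). Of the 3 splicing factors known to bind *Miat*, *Sf1* had 985 of its 1024 reads in the *Fezf2+ve* library of animal 1, *Qk* had 873 reads in the *Fezf2−ve* library of animal 5, and *Celf3* had 1 read. The 2 tested had a median log2 fold change of −0.33. Of 9 genes of the Polycomb complex PRC2, to which *Meg3* binds, 6 were tested, 3 above 0 and 3 below, with a median of −0.07. *Jarid2*, which recruits PRC2, had the most reads and a log2 fold change of −1.85 ± 1.19 (SE; edgeR, adjusted p = 0.998). In these 4 lists 0 of 42 tested genes passed an unadjusted p under 0.05 in edgeR, beside 3.89% of all tested genes. DESeq2 with the block called none, but it gave most of them no adjusted p. Without the block edgeR called *Clk4*, a kinase of splicing factors, as lower in *Fezf2+ve* (adjusted p = 0.097), with 1332 of its 1350 reads in the *Fezf2−ve* library of animal 5.

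Of the other snoRNA host genes only *Gas5*, linked to growth arrest, had more reads than *Snhg11* (91 against 81, or 14.9 against 4.84 pooled CPM per kb). Of 15 in the table, 9 had reads and 6 had none, and all 15 together had 136 reads. In animals 1 to 5, *Gas5* was read 5, 4, 4, 0 and 72 times in *Fezf2+ve* IT-PNs and 3, 0, 3, 0 and 0 times in *Fezf2−ve* IT-PNs. The *Fezf2+ve* library of animal 5 thus had the most reads of both *Gas5* and *Snhg11*, although by CPM *Snhg11* was higher in that of animal 2 (279 against 207). *Gas5* and *Snhg8* were the tested ones, 1 above 0 and 1 below, with a median log2 fold change of 0.76. That of *Snhg8* was −1.42 ± 1.87 and that of *Gas5* 2.95 ± 1.72 (SE; edgeR, adjusted p = 0.998). Of 29 other long noncoding RNAs in the count table, 18 had reads and 12 were tested, 6 above 0 and 6 below, with a median of 0.14. Among them *Tug1* was at −1.37 ± 1.34 and *Bc1* at −0.04 ± 1.04 (SE). *2900097C17Rik*, singled out after its values were seen, was the 1 of 12 with an unadjusted p under 0.05 (edgeR, log2 fold change 3.61 ± 1.55, adjusted p = 0.998). *Xist*, which is silent in males, had no reads in these male animals.

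Marker genes of cell types are given beside the members. The 15 microglia markers were all read. Their sum was 79 to 271 CPM in *Fezf2+ve* and 1864 to 7344 CPM in *Fezf2−ve* libraries, with no overlap. *Ctss* was the most abundant of them, at 5, 4, 0, 0 and 1 reads in *Fezf2+ve* and 372, 91, 196, 92 and 56 reads in *Fezf2−ve* IT-PNs. All 15 were tested and had a log2 fold change under 0, with a median of −4.78. At an unadjusted p under 0.05 in edgeR with the block, 11 passed (73.3%), beside 3.89% of all tested genes, although none was called. DESeq2 with the block called 10, beside 5.89% of the genes to which it gave an adjusted p. It gave none to *Aif1*, *Trem2*, *Fcrls* and *Siglech*. Without the block edgeR called 11, all lower in *Fezf2+ve*, beside 3.77% of all tested genes. The paper reports microglia-associated genes as expressed in *Fezf2−ve* IT-PNs. Whether the reads on these markers came from microglia was not tested, nor was any part of such RNA in the members' fold changes.

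Neuron markers were thinly read in both types. Of 11, 10 had reads, *Nefl* had none, and *Camk2a*, the most abundant, had 529 of its 588 reads in the *Fezf2−ve* library of animal 3. Their sum had a median of 652 CPM in *Fezf2+ve* and 191 CPM in *Fezf2−ve* libraries and was highest in the *Fezf2−ve* library of animal 3 (3426 CPM) and the *Fezf2+ve* library of animal 5 (2218 CPM), where *Camk2a* (3136 CPM) and the glutamate receptor gene *Grin2b* (2139 CPM) made up most of it. The 8 tested had a median log2 fold change of 0.66. The part of neuronal RNA in the level of *Snhg11* was not tested.

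The *Fezf2+ve* library of animal 2, which was high in *Neat1* and *Snhg11*, also had the highest sum of oligodendrocyte markers (10711 CPM), of astrocyte markers (7664 CPM, *Slc1a2* most abundant) and of oligodendrocyte precursor markers (2629 CPM, *Pdgfra* most abundant). All 8 oligodendrocyte and all 4 precursor markers were read, and *Gfap* was the 1 astrocyte marker of 8 without reads. The libraries of animal 5, with the most *Neat1* reads, had lower oligodendrocyte (403 and 271 CPM) and astrocyte sums (477 and 110 CPM) and precursor sums of 639 and 1116 CPM, the latter the highest among *Fezf2−ve* libraries. The tested markers had median log2 fold changes of 0.40 (7 of oligodendrocytes), 1.46 (6 of astrocytes) and 0.88 (4 of precursors). Of these 17, 0 passed an unadjusted p under 0.05 in edgeR. DESeq2 with the block called none, but it gave some of them no adjusted p. All 6 endothelial markers were read, with 53 reads in all, 26 of them on *Flt1*. The 3 tested had a median log2 fold change of 0.50, and none passed an unadjusted p under 0.05. Endothelial sums were 0 to 74.3 CPM in *Fezf2+ve* and 11.9 to 59.7 CPM in *Fezf2−ve* libraries. By CPM they were highest, at 8 to 13 reads, in the 3 libraries highest in *Neat1*. The lowest of these 3, at 54.1 CPM, was close to the *Fezf2+ve* library of animal 3 (50.8 CPM), which had the lowest *Neat1* level (4 reads). The *Fezf2−ve* library of animal 4 also had 8 endothelial reads. Whether RNA of such cells had a part in the levels of *Neat1* and *Snhg11* was not tested.

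**Figure D4:**
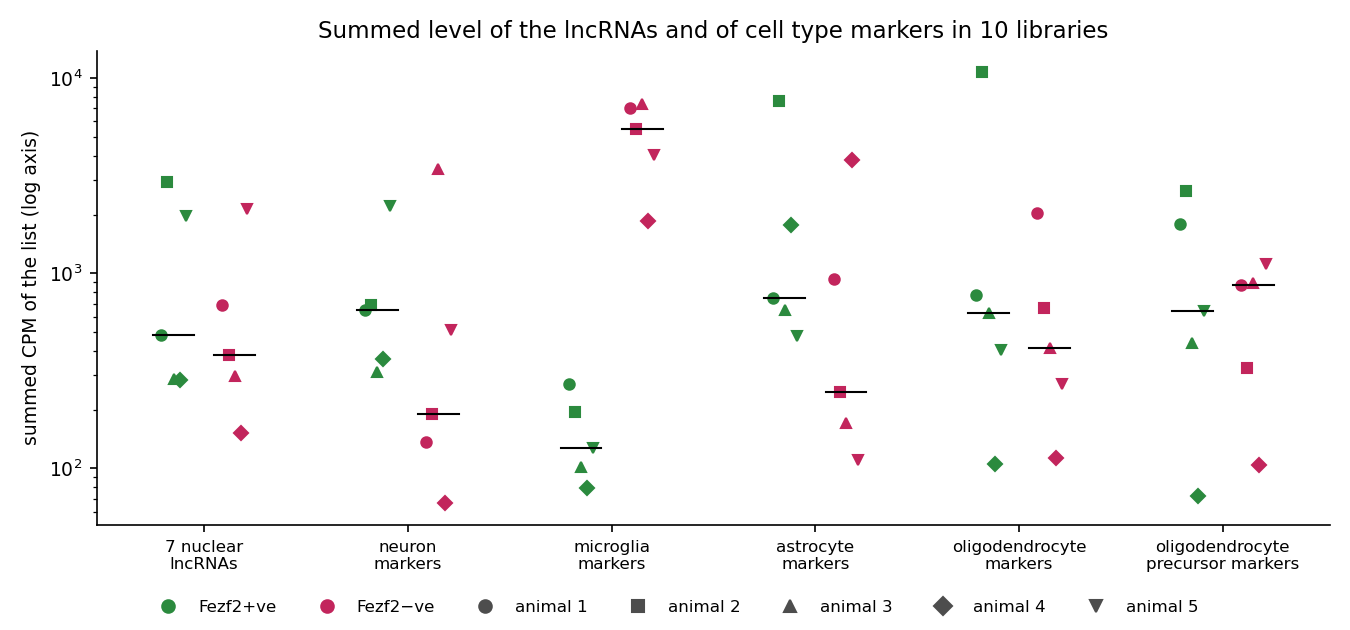
Summed CPM, on a log axis, of the 7 members and of 5 lists of cell type markers in each library, with *Fezf2+ve* in green, *Fezf2−ve* in red, a symbol for each animal and a black line at the median of 5 libraries. The member sums overlap between types (284 to 2926 and 151 to 2140 CPM), whereas the microglia sums do not (79 to 271 and 1864 to 7344 CPM).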

How the data were processed

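Per the study's methods and the submitters' processing notes, the authors demultiplexed and trimmed the reads, discarded short ones, mapped the rest to mm10 with TopHat2 2.1.1 and assigned them to RefFlat genes with bedtools 2.26.0 (multiCov). The deposited table holds raw read counts per gene, without normalization. Whether introns and strand were used in the counting is not given in the sources used here. Gene reads are about as many as the mapped reads listed in the paper, so reads in introns appear to have been counted. A read may be assigned to each gene it overlaps. Spike-in counts and the table of the authors' own DESeq2 comparison, which holds fold changes and p-values, were not used here.

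CPM were computed over all gene reads. The filter kept 7409 of 24453 genes, those that reached 10 CPM in 2 or more libraries. They were scaled by TMM and fitted in edgeR 4.0.16 (R 4.3.3) by quasi-likelihood, the animal being a block. A gene was called when its p, adjusted by Benjamini-Hochberg over all tested genes, was 0.1 or less. The SE was the fold change divided by the square root of F. The labels state that the cells of each animal were separated into both types, so libraries with the same number were paired. Deviations from the type means had a mean correlation of 0.03 between libraries of an animal (−0.03 to 0.10) and −0.01 between animals. Alternatives were a fit without the block, DESeq2 1.42.0, limma-voom (limma 3.58.1), other size factors, filters, a threshold of 0.05, downsampled counts, a pseudocount of 10, removal of the features inside members, and leaving out each animal. The legacy quasi-likelihood method of edgeR was run first, with library sizes over all genes. Both were replaced after their results had been seen, and they are given as alternatives chosen after seeing the data. The fits were tested on simulated data.

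Named genes were the members, the 3 genes with the most reads in each list, features within members with at least 3 reads (none), and the 2 genes most like each tested member. Members and lists were chosen with earlier results of these data known. Positions are those of GENCODE vM21 and RefSeq on GRCm38, counted from 1. Transcripts of 80% to 125% of a member's length counted as similar in length. Python 3.11.15 was used for the remaining steps.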

Additional observations from a re-analysis of the deposited data

How the results depend on the processing

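The count of 0 called genes was also 0 under 13 alternatives to the fit with the animal block. Among them were each left-out animal (0 to 0), the other size factors and filters, downsampled counts and the threshold of 0.05. The legacy quasi-likelihood fit, added after seeing the data, was another. With 0 genes at a threshold of 0.1, that of 0.05 could give no other count and is no separate check. It was 279 without the block, 98 by DESeq2 with the block, 13 by limma-voom with the block, and 638 by the legacy fit without the block, which was also chosen after seeing the data.

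The log2 fold change of *Malat1* reversed to −0.20 without the block, under the current and the legacy fit alike, and to −0.064 with downsampled counts, and leaving out each animal in turn gave −0.28 to 0.61. Those of *Neat1* and *Meg3* kept their direction under all 17 alternatives, with adjusted p-values of 0.786 to 1 and, where 1 was given, 0.363 to 1. Leaving out each animal gave 0.10 to 1.1 for *Neat1*, 1.90 to 3.03 for *Meg3* and 3.66 to 4.81 for *Snhg11*. *Snhg11* kept its direction under the 16 alternatives that tested it, passed the threshold under the legacy fit without the block (4.35, adjusted p = 0.0883), and had adjusted p-values of 0.0883 to 1 over the alternatives in which one was given. It was lowest, at 2.61, by limma-voom. The block changed no other call of a member. Removal of the features inside members, which held 1 read together, left every member's fold change as it was and is no separate check. With the stricter filter *Snhg11* was no longer tested. With a pseudocount of 10 the mean level of *Snhg11* in *Fezf2−ve* IT-PNs moved from 1.38 to 3.74, and the difference in mean level between types fell from 3.42 to 2.03 for *Snhg11* and from 2.91 to 1.48 for *Meg3*. The causes were not tested.

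A library had at most 217738 gene reads, *Miat*, *Rian* and *Mirg* stayed at or under the floor, and *Snhg11* in *Fezf2−ve* IT-PNs rested on 3 reads. The types were separated by a reporter, markers of other cells were read in both, and levels are those of the sorted samples. The libraries come from 5 male animals of a single age range, and each type has 1 library per animal.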

Other observations

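Reads of a gene were often held by a single library. Over the 7409 tested genes the library with the most reads held a median of 50% of a gene's reads, and 3285 genes (44.3%) had more than 50% of their reads in it. The members were at 31.6% (*Meg3*), 35.1% (*Malat1*), 40.2% (*Neat1*) and 51.9% (*Snhg11*, the *Fezf2+ve* library of animal 5). In the *Fezf2+ve* library of animal 1, *Sema6a* took 29.8% of all gene reads, which lowers the CPM of every other gene in that library, the members included. In the other 9 libraries the most read gene took 1.90% to 10.3%.

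In none of the 10 groups of 5 values examined (levels of the 4 tested members as TMM-scaled log2(CPM + 1), and gene reads, in each type) did Dixon's ratio pass its critical value of 0.71. The highest ratio was 0.676, for *Malat1* in *Fezf2+ve* IT-PNs, where the library of animal 4 was the lowest.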
